A study of Mus musculus with 18 samples.

Results

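The genes that encode the proteins of the mitochondrial ribosome were examined in RNA-Seq data from embryonic mouse lungs. Members were the table rows whose symbol begins with Mrpl or Mrps followed by a number, pseudogenes left out. This gave 76 genes of 23420 rows, and the same 76 were found in each of the 3 tables. By name, 47 belong to the large subunit (Mrpl) and 29 to the small subunit (Mrps). All 76 passed the filter on low values, for which 3 of the 6 libraries of a table had to reach 10 normalized counts. Mrpl57 and Mrpl58 are listed under the older names Mrp63 and Ict1 and did not meet the rule.

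The 18 libraries came from whole embryonic lungs in 3 experiments, each with 3 control and 3 mutant libraries and a table of its own. In the Vangl1-2 experiment, at E12.5dpc, both groups carried Vangl1-/-, and the mutants were also Vangl2-/-. This gives a comparison of Vangl2 loss in lungs without Vangl1, the latter from a gene trap. In the Wnt5a-Dermo1-Cre experiment, also at E12.5dpc, all lungs carried Dermo1Cre, which recombines in mesenchyme, and the mutants were Wnt5af/f where the controls were Wnt5af/+. The Wnt5a-Sox9-Cre experiment was done at E13.5dpc, with Sox9Cre acting in the epithelium of Wnt5af/f mutants and Wnt5af/+ controls. In both Wnt5a experiments the controls had 1 floxed allele and the Cre, and cells outside the Cre domain kept Wnt5a. The labels do not say whether each library is a separate animal or a pool, so the tests measure the spread between these libraries, which may be technical.

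Mammalian mitochondria make a small set of inner membrane proteins, all of them subunits of the respiratory chain or of ATP synthase, on ribosomes of their own. The rRNAs of this ribosome come from mitochondrial DNA, whereas every one of its proteins is encoded in the nucleus, made in the cytosol and imported. The small subunit binds the mRNA and decodes it, and the large subunit forms the peptide bond and sits against the inner membrane. Many of the proteins have a bacterial homologue, others were added in the mitochondrial lineage, and a growing embryo needs both subunits in step. Transcripts of the mitochondrial genome itself were not analysed here.

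Normalized counts summed to between 15880958 and 20237520 per library. In the Vangl1-2 table the deleted gene was the check on the labels. Vangl2 stood at 277, 406 and 334 normalized counts in control replicates 1 to 3 and at 86.5, 79.8 and 89.6 in the mutants, a log2 fold change of -1.96 ± 0.17 (SE, adjusted p = 0.0318). Vangl1 was counted in all 6 libraries, at 162, 219 and 113 in controls and 239, 274 and 242 in mutants. In the Wnt5a tables the log2 fold change of Wnt5a was -0.55 ± 0.19 with Dermo1-Cre (limma, adjusted p = 0.406) and -0.12 ± 0.10 with Sox9-Cre (adjusted p = 0.9999). With Dermo1-Cre, Wnt5a stood at 472, 430 and 489 in controls and at 317, 436 and 230 in mutants. With Sox9-Cre it stood at 473, 453 and 426 in controls and at 442, 362 and 448 in mutants. The groups overlapped in both experiments, so Wnt5a did not serve as a check on the labels there. Control replicate 2 of the Vangl1-2 table stood apart from the other controls. On the first principal component of all genes, which held 51.7% of the variance, it lay at 16.97, beside the mutants at 15.1, 21.5 and 21.3, with the other controls at -30.1 and -44.7. For the Vangl1-2 table, the calls and the medians of the members and of gene classes are therefore also given without it.

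Levels can be compared between genes only per length of RNA. Per kilobase of the longest annotated transcript, the control mean in the Vangl1-2 table ran from 155 ± 37.2 for Mrps25 (SD, n = 3), a small subunit protein found only in mitochondria, to 3225 ± 824 for Mrpl42, a large subunit protein of the same origin. The next highest were Mrpl52 with 3214 ± 823 and Mrpl54 with 2287 ± 540, both mitochondria-only proteins of the large subunit. The next lowest were Mrps26 with 177 ± 38.1 and Mrpl47 with 180 ± 47.8. The low end includes genes with long annotated 3′ ends. The longest transcript of Mrps25 has 6073 bases, of which 513 are coding, and per kilobase of coding sequence it ranked 35 of 76. Per kilobase of coding sequence all members lay between 587 and 5041 normalized counts, a range of 8.59-fold. The corresponding ranges were 9.16-fold in the Wnt5a-Dermo1-Cre controls and 8.84-fold in the Wnt5a-Sox9-Cre controls, and Mrpl42 was the highest in each. The median per coding kilobase was 1843 for the large and 1705 for the small subunit in the Vangl1-2 controls. These medians lay further apart in the other controls, at 1119 and 794 with Dermo1-Cre and 1119 and 860 with Sox9-Cre.

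In the Vangl1-2 table all 76 members had a log2 fold change below 0, against 51.2% of all genes tested. The median was -0.40, a change of -24.2%, where the median of all genes was -0.0093. The members ran from -0.61 for Mrps14 to -0.08 for Mrpl1. None passed an adjusted p of 0.05 in limma, where the smallest adjusted p of a member was 0.233 and 0.00699% of all genes passed, which is Vangl2 alone. At an unadjusted p under 0.05, 37 members (48.7%) were lower, against 8.56% of all genes, and 0 were higher, against 12% of all genes.

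The single libraries show a wide spread among the controls. Relative to the mean of the controls, the median member stood at 0.14, -0.40 and 0.26 on the log2 scale in control replicates 1, 2 and 3, and at -0.35, -0.38 and -0.49 in the mutants. Control replicate 2 thus lay at the level of the mutants. In all 76 genes every mutant library was below control replicates 1 and 3, which held for 32.3% of all genes. Control replicate 2 was also below the other controls in all 76, against 42.7% of all genes. It was above all mutants for 15 members, below all of them for 18 and within their range for 43. Those 15 members were the ones whose groups did not overlap, or 19.7%, against 8.68% of all genes in that direction, and 0 members were apart in the other direction, against 13.6%. Together the members took 0.471% and 0.492% of the normalized counts in control replicates 1 and 3, 0.346% in control replicate 2, and 0.349%, 0.341% and 0.327% in the mutants.

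**Figure D1:**
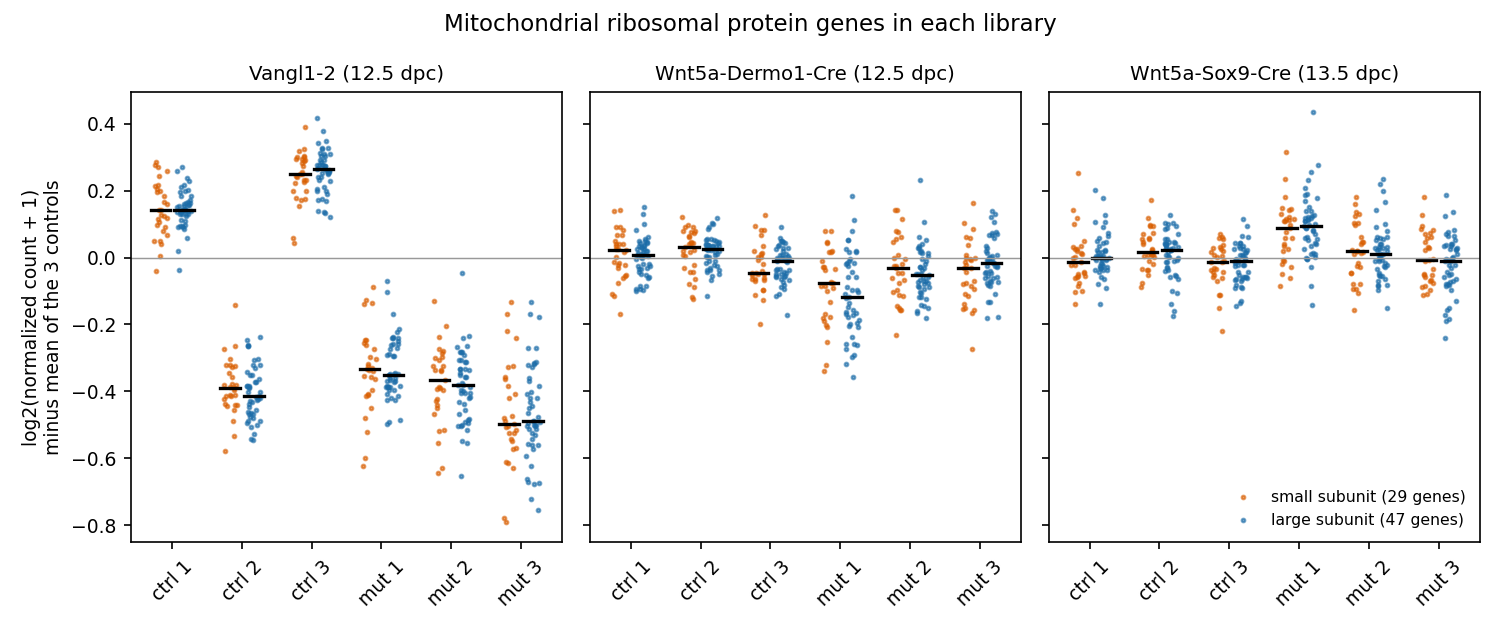
Each point is 1 of the 76 genes in 1 library, as log2(normalized count + 1) minus the mean of the 3 controls of its table, and black lines mark medians. In the Vangl1-2 panel control replicate 2 sits with the mutants, at a median of -0.40, and both subunits move together in every library, whereas the Wnt5a panels stay near 0.

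Without control replicate 2, 75 of the 76 members passed an adjusted p of 0.05 and all of these were lower in the mutants. By then 21.7% of all genes also passed as lower and 21.5% as higher. The library left out, control replicate 2, had been set apart by its place beside the mutants in these same data. The median SD of the members was 0.36 on the log2 scale over all controls and 0.077 over control replicates 1 and 3. These calls therefore describe the libraries kept and are not a test of genotype. The median of the members was -0.61 without that library, with single genes between -0.88 for Mrps24 and -0.20 for Mrpl1. Mrps14 then stood at -0.83, Mrpl12 at -0.77 and Mrps2 at -0.20. Mrpl1, the protein of the mobile L1 stalk, was the member that did not pass. Leaving out any other single library gave 0 members under 0.05, with medians between -0.27 and -0.43, so that the number of calls rested on which controls were kept.

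**Figure D2:**
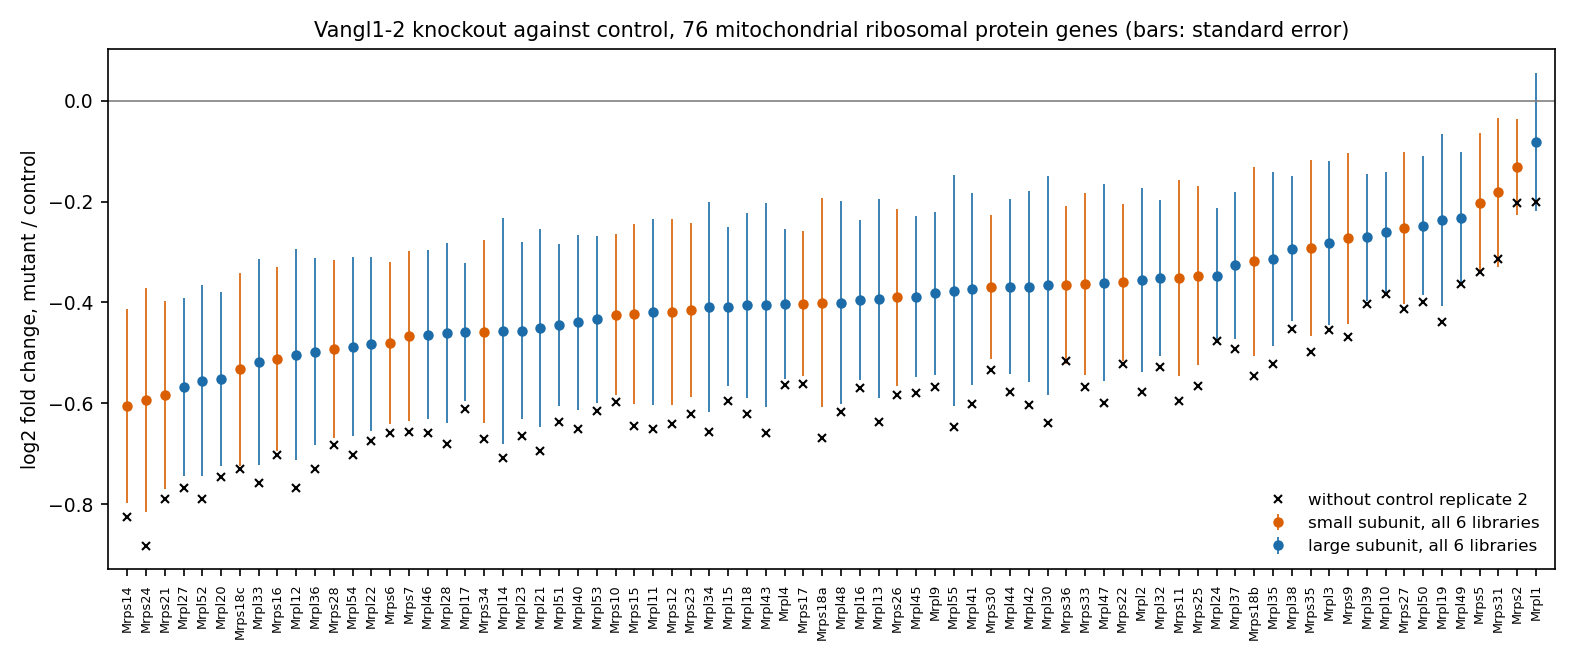
Log2 fold change of each of the 76 genes in the Vangl1-2 table, ordered from lowest to highest, with bars for the standard error from limma and crosses for the fit without control replicate 2. All 76 points lie below 0, between -0.61 and -0.08. Every cross lies lower than its point, which follows from control replicate 2 being below the other controls in all 76 genes.

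The lowest member was Mrps14, the counterpart of bacterial S14 in the small subunit. It had 706, 503 and 896 normalized counts in control replicates 1 to 3 and 451, 437 and 459 in the mutants, so that the groups did not overlap (log2 fold change -0.61 ± 0.19, adjusted p = 0.233). Mrpl27, a large subunit protein placed near the site of peptide bond formation, gave 950, 652 and 1032 in controls and 615, 611 and 522 in mutants (-0.57 ± 0.18, adjusted p = 0.233). Mrpl52 gave 1686, 1048 and 1730 against 1029, 1032 and 908 (-0.55 ± 0.19, adjusted p = 0.233). For these last 2 genes the mutants also stayed below all controls, with control replicate 2 close above them. Mrps24, the counterpart of S3 at the mRNA entry channel, had 1094, 605 and 1112 in controls and 628, 583 and 584 in mutants (-0.59 ± 0.22). Mrps21 had 1208, 760 and 1123 in controls and 762, 688 and 584 in mutants (-0.58 ± 0.19). In both of these small subunit genes mutant replicate 1 lay just above control replicate 2, so the groups overlapped.

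At the other end of the range, Mrpl1 had 722, 629 and 897 in controls and 706, 718 and 677 in mutants (-0.08 ± 0.14, adjusted p = 0.731). Mrps2 had 1829, 1549 and 1759 against 1556, 1562 and 1559 (-0.13 ± 0.09, adjusted p = 0.412), and Mrps31 had 649, 555 and 824 against 606, 566 and 594 (-0.18 ± 0.15, adjusted p = 0.468). In all of these the mutants lay inside the range of the controls. Mrps5 and Mrpl49 followed with -0.20 ± 0.14 and -0.23 ± 0.13.

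Proteins with known tasks in the ribosome lay within the same band of values. Mrpl12, the stalk protein that contacts translation factors and that also binds the mitochondrial RNA polymerase, had 3152, 1828 and 3173 normalized counts in controls and 2021, 1907 and 1666 in mutants (-0.50 ± 0.21, adjusted p = 0.240). Mrpl11, at the base of the stalk, gave -0.42 ± 0.18. Mrpl3, which reaches toward the catalytic centre, had 1596, 1241 and 1973 against 1228, 1268 and 1393 (-0.28 ± 0.16, adjusted p = 0.318). The short large subunit proteins Mrpl33 and Mrpl36 gave -0.52 ± 0.20 and -0.50 ± 0.19, and the mitochondria-only proteins Mrpl41 and Mrpl44 each gave -0.37, with standard errors of 0.19 and 0.17. In the small subunit, Mrps12, part of the decoding centre, had 903, 550 and 846 against 593, 570 and 520 (-0.42 ± 0.18, adjusted p = 0.246). Mrps16, a core assembly protein in bacteria, gave -0.51 ± 0.18. Mrps22, Mrps27 and Mrps34, all added in the mitochondrial lineage, Mrps27 with the repeats of RNA-binding pentatricopeptide proteins, gave -0.36 ± 0.16, -0.25 ± 0.15 and -0.46 ± 0.18. Mrps6 gave -0.48 ± 0.16, and its mutants at 355, 326 and 325 stayed below the controls at 523, 365 and 537.

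The name does not always give the subunit. Mrps30 and Mrps18a are placed in the large subunit in structures of the ribosome, and had log2 fold changes of -0.37 ± 0.14 and -0.40 ± 0.21. Their relatives Mrps18b and Mrps18c remain in the small subunit and had -0.32 ± 0.19 and -0.53 ± 0.19. Mrps36, now placed in the 2-oxoglutarate dehydrogenase complex of the citric acid cycle and not in the ribosome, had 829, 568 and 728 in controls and 579, 576 and 481 in mutants (-0.36 ± 0.16, adjusted p = 0.241). It ranked 51 of 76 from the lowest, and stood at 0.081 with the length trend removed and at -0.52 without control replicate 2.

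Both subunits had like values. In the Vangl1-2 table the median was -0.40 for the small subunit (29 genes) and -0.40 for the large subunit (47 genes). With the genes placed as in structures, and proteins without an Mrp name added, the medians were -0.41 for 30 small and -0.40 for 50 large subunit genes. Without control replicate 2 the medians by name were -0.60 and -0.61. For each 100 normalized counts of large subunit genes, the small subunit genes had 48.4, 49.5 and 48.0 in control replicates 1 to 3. In the mutants they had 49.0, 49.1 and 49.4. The groups overlapped only through control replicate 2, which had the highest ratio, while control replicates 1 and 3 lay below every mutant. The corresponding ratio was between 49.7 and 51.4 in the 6 Wnt5a-Dermo1-Cre libraries and between 49.3 and 51.4 in the 6 Wnt5a-Sox9-Cre libraries. Genes with a bacterial homologue (45) had a median of -0.42 and mitochondria-only genes (29) of -0.37 in the Vangl1-2 table, or -0.64 and -0.58 without control replicate 2. In the Wnt5a-Dermo1-Cre table these medians were -0.057 and -0.051, and in the Wnt5a-Sox9-Cre table they were 0.022 and 0.039.

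Transcript length moved with these values. The longest transcript of the median member has 1284 bases, against 3160 for all genes tested, and only 9.75% of those genes are shorter than the median member. Across 14184 genes with a length, Spearman's correlation of log2 fold change with transcript length was 0.72 in the Vangl1-2 table, also without control replicate 2. In the Wnt5a tables it was 0.25 with Dermo1-Cre and -0.033 with Sox9-Cre. Genes of 1 library share that library's profile, so these are descriptions without a test. Library by library, the correlation of a gene's deviation with its length was -0.67, 0.38 and -0.62 in the Vangl1-2 control replicates 1 to 3 and 0.53, 0.48 and 0.60 in the mutants, which is the same split of libraries as for the members. Among all genes of a similar size, in the class with a median length of 1201 bases, the median log2 fold change was -0.33.

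**Figure D3:**
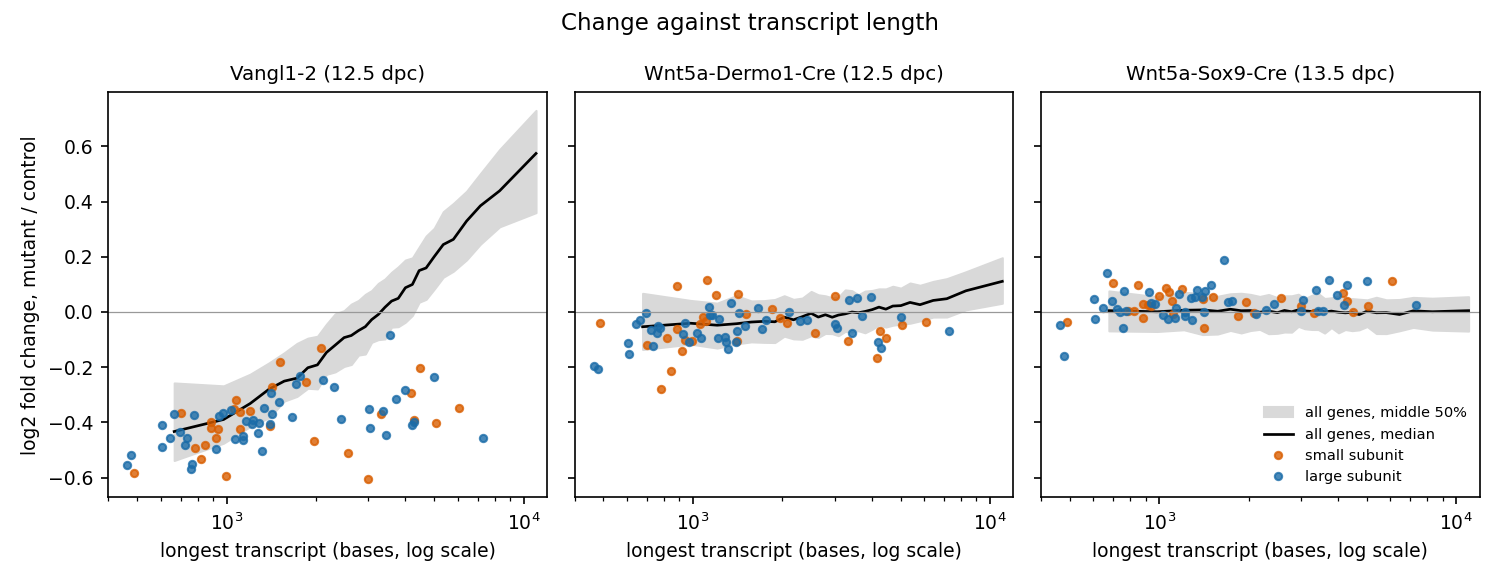
Log2 fold change against the length of the longest annotated transcript on a log axis, with the 76 genes as points and the median and middle 50% of all tested genes, in 30 length classes, as a line and band. In the Vangl1-2 panel the line climbs with length and the short members lie near it, while most members with transcripts of 2000 bases or more lie below it.

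After subtraction of the length trend of each library, the median of the members in the Vangl1-2 table was -0.088 in place of -0.40. After this step 61 of 76 had a log2 fold change below 0, against 49.8% of all genes, and 14 (18.4%) were lower at an unadjusted p under 0.05, against 4.53%, and 0 were higher, against 3.85%. None passed an adjusted p of 0.05, as 0.00705% of all genes did. What was left differed between short and long members. The 53 members with a longest transcript under 2000 bases had a median of -0.053, whereas the 23 longer ones had a median of -0.39. For several long members that transcript carries a long 3′ end: Mrpl17 has 7300 bases of which 528 are coding, and moved from -0.46 ± 0.14 to -0.84 after the step. Mrps14 has 2999 bases with 384 coding, and moved from -0.61 to -0.57. With coding length in the place of transcript length the median was -0.19, with 72 of 76 below 0, against 52.8% of all genes, and 14 lower at an unadjusted p under 0.05, against 5.18%. With coding length Mrpl17 stood at -0.21 and Mrps14 at -0.29. Without control replicate 2 the median was -0.15 with the transcript length trend removed and -0.28 with the coding length trend removed. The part of RNA quality or of library preparation in the difference was not tested.

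Some markers of other cell types differed between the same libraries. The 6 mesenchyme markers summed to 31904 and 24795 normalized counts in control replicates 1 and 3, to 51862 in control replicate 2, and to between 39182 and 51377 in the mutants. Col1a1 alone took 16896 and 9293 of these sums in control replicates 1 and 3 and 35260 in control replicate 2. Pdgfra had 2785, 4205 and 2559 in the controls and 4171 to 4273 in the mutants. Tbx5, at 2837, 3431 and 2651 against 3452 to 3718, and Tbx4, at 3770, 3976 and 3514 against 4129 to 4292, went the same way. Foxf1 lay between 3129 and 3816 in all 6 libraries, and Wnt2 went the other way among the controls, with 2266, 1861 and 2961. The 4 endothelium markers summed to 7976, 9565 and 7389 in the controls and 9169, 9559 and 10033 in the mutants. Among these Pecam1 had 2514, 2593 and 2300 against 2367, 2445 and 2648. The 4 smooth muscle markers, all detected, summed to 7869, 10205 and 11588 in the controls and 5986, 6279 and 8914 in the mutants. Among them Tagln, at 1140, 1303 and 1576 against 769, 813 and 981, set every control, replicate 2 included, above every mutant. So did Actg2, at 1033, 1228 and 1510 against 825, 495 and 953. The groups overlapped for Acta2, at 4924, 5709 and 6782 against 3234, 4332 and 5086. They also overlapped for Myh11, at 772, 1965 and 1720 against 1157, 640 and 1894. The 7 lung epithelium markers, all detected, ranged from 12075 to 14095 in controls and from 11905 to 13889 in mutants. The 9 cardiomyocyte markers, 8 of them detected, summed to 1862, 1671 and 5309 in the controls and 602, 7699 and 1664 in the mutants. Of 9 erythroid markers 7 were in the table and 5 were detected, with Hba-a1 and Hba-a2 listed at 0. Their sum was 58367, 34053 and 52331 in the controls and 45428, 40474 and 32014 in the mutants. In whole lungs, fewer cells of a type and less RNA per cell cannot be told apart, and the part of cell composition in the members' values was not tested.

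Other genes of mitochondrial translation have longer transcripts than the members, with list medians of 2262 to 3228 bases, and 0 of them passed an adjusted p of 0.05 in the Vangl1-2 table. The 5 ribosomal proteins without an Mrp name were all below 0, from -0.47 ± 0.20 for Chchd1 and -0.43 ± 0.17 for Aurkaip1 to -0.12 ± 0.13 for Ptcd3, with a median of -0.30. Of 19 assembly and rRNA modification factors, 18 were below 0 with a median of -0.20, from -0.45 ± 0.19 for Malsu1, which guards the large subunit from joining too early, to 0.01 ± 0.08 for the helicase Dhx30. The 16 translation factors had a median of -0.22, from -0.55 ± 0.19 for Slirp, an mRNA binding protein, to 0.11 ± 0.09 for Gfm2, a factor of ribosome recycling. The 19 mitochondrial aminoacyl-tRNA synthetases had a median of -0.17, with Fars2 lowest at -0.38 ± 0.14 and Wars2 highest at 0.15 ± 0.11. The 13 genes of mitochondrial DNA transcription and maintenance had a median of -0.18, from -0.44 ± 0.17 for Hsd17b10, a subunit of mitochondrial RNase P, to 0.11 ± 0.10 for Peo1, the helicase Twinkle. The 12 regulators of nuclear genes for mitochondria, such as Nrf1 and the Gabp subunits, had longer transcripts, with a list median of 4570 bases. Their median log2 fold change was 0.11, with Sp1 at 0.58 ± 0.14 and Gabpb2 at 0.54 ± 0.16, and 5 of the 12 were below 0. At an unadjusted p under 0.05 in limma 2 were higher, against 12% of all genes, and 0 lower, against 8.56%. The regulator median was 0.033 with the transcript length trend removed and 0.13 without control replicate 2. The order of these lists and the members turned with the length trend removed. The medians were then -0.15 for the synthetases and -0.10 for the proteins without an Mrp name, both lower than -0.088 for the members, and lay between -0.071 and -0.058 for the mitochondrial DNA genes, translation factors and assembly factors. With coding length they were -0.22 for the synthetases and -0.19 for the members. Without control replicate 2 and with no length step, the medians were -0.53 for the proteins without an Mrp name, -0.35 for the translation factors, -0.31 for the assembly factors, -0.28 for the mitochondrial DNA genes and -0.23 for the synthetases.

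The members were set beside the other large classes of short transcripts. In the Vangl1-2 table all 80 cytosolic ribosomal protein genes were below 0 with a median of -0.55, and all 81 nuclear-encoded respiratory chain genes were below 0 with a median of -0.46. At an unadjusted p under 0.05, 57 and 59 of them were lower. The lowest were Rpl29 at -1.28 ± 1.76 and Atp5e, the epsilon subunit of ATP synthase, at -0.86 ± 0.19, and the highest were Rpl30 at -0.25 ± 0.25 and Cox4i2 at -0.08 ± 0.26. With the length trend removed the medians were -0.13 and -0.078, beside -0.088 for the members. Without control replicate 2 they were -0.79 and -0.69, beside -0.61. The 3 classes thus shared the direction, and no test of a difference between them was made. With Dermo1-Cre the medians were -0.058 for the cytosolic ribosomal proteins and -0.098 for the respiratory chain, and with Sox9-Cre they were 0.026 and -0.012.

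**Figure D4:**
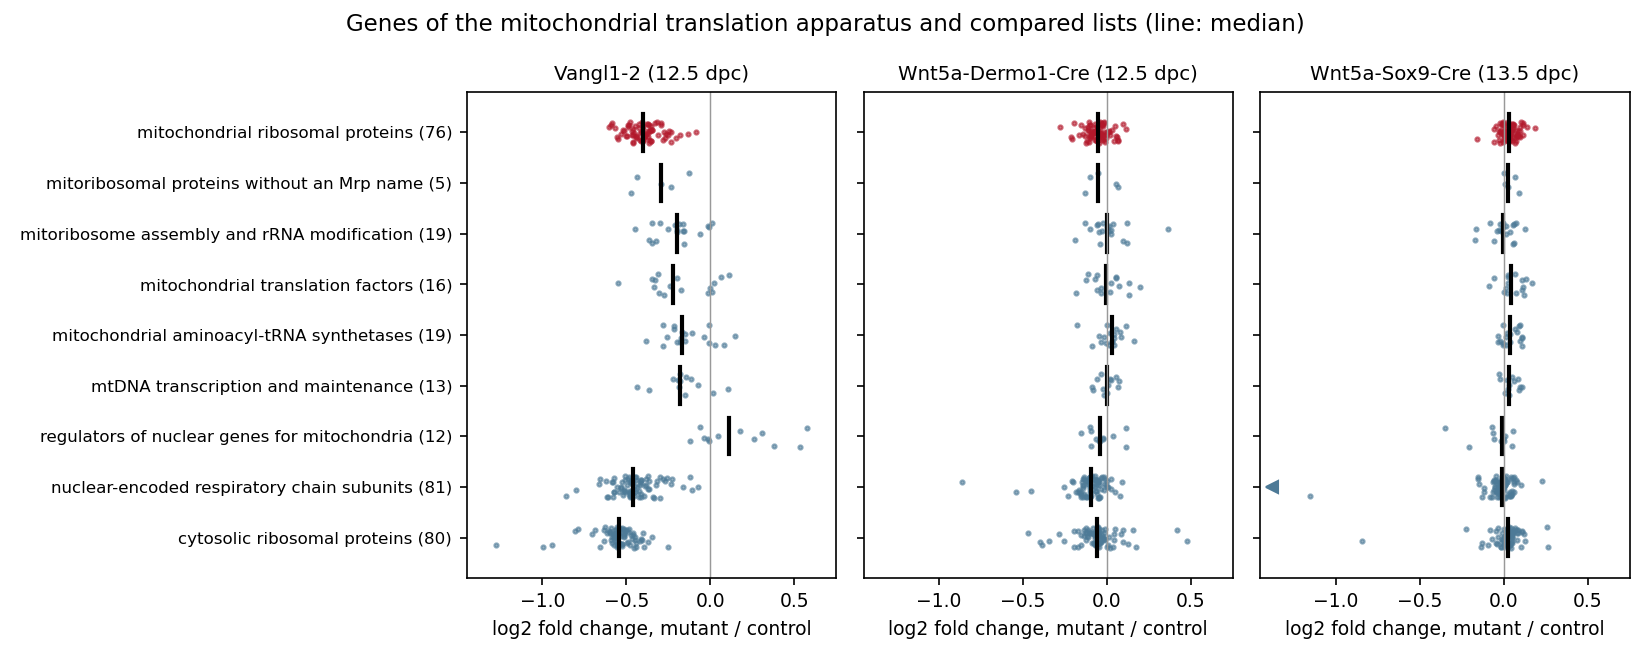
Log2 fold changes of the members (red) and of 8 other gene lists (blue) in the 3 tables, with the number of tested genes in the Vangl1-2 table in parentheses and medians as black lines. In the Vangl1-2 panel the member median is -0.40, between the assembly factors at -0.20 and the cytosolic ribosomal proteins at -0.55, and an arrow marks 1 respiratory chain gene off the scale in the Wnt5a-Sox9-Cre panel.

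With mesenchymal loss of Wnt5a, in the Wnt5a-Dermo1-Cre table, the members' differences between groups were small. The median log2 fold change was -0.055, a change of -3.73%, and 63 of 76 genes were below 0, against 49.7% of all genes. No member passed an adjusted p of 0.05 in limma (0.014% of all genes did), and the smallest adjusted p was 0.351. At an unadjusted p under 0.05, 6 members (7.89%) were lower, against 4.76% of all genes, and 0 were higher, against 5.42%. The groups did not overlap for 13 members in the lower direction (17.1%, against 7.92% of all genes) and for 1 in the higher direction (1.32%, against 7.65%). The spread between the controls was small, with a median SD of 0.058 on the log2 scale, against 0.36 in the Vangl1-2 controls.

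The difference was widest in mutant replicate 1. The median member stood at 0.012, 0.025 and -0.015 in the controls and at -0.096, -0.049 and -0.024 in mutant replicates 1 to 3. Mutant replicate 1 was below every control for 46 members, mutant replicate 2 for 32 and mutant replicate 3 for 25, against 29.7%, 25.4% and 27.3% of all genes. Without mutant replicate 1 the median of the members was -0.033. The length correlation of all genes in mutant replicate 1 was 0.31, the highest of the table. With the length trend removed the median was -0.021, with 47 of 76 below 0 against 48.7% of all genes, and 4 were lower at an unadjusted p under 0.05, against 4.41%, and 0 higher, against 4.82%. With coding length 49 of 76 were below 0, against 48.8%. Markers of other cells also differed between these groups. The 5 neuron markers, all detected, summed to 367, 348 and 624 in the controls and 758, 1641 and 1674 in the mutants, which did not overlap. Snap25 among them had 15.0, 17.1 and 26.8 against 42.4, 141 and 140. The 4 smooth muscle markers summed to 12179, 10356 and 14428 against 6872, 11198 and 7193, lower in mutant replicates 1 and 3. The 9 cardiomyocyte markers, all detected, varied widely between libraries and the groups overlapped. They summed to 1347, 6612 and 20194 in the controls and 2908, 4122 and 864 in the mutants. The part of these cells in the members' values was not tested. The small subunit had a median of -0.048 and the large subunit of -0.057.

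Mrps28, the counterpart of bacterial S1 in the small subunit, was lowest. It had 264, 255 and 282 normalized counts in controls and 211, 227 and 221 in mutants, with no overlap (-0.28 ± 0.08, adjusted p = 0.351). Mrpl33 had 381, 418 and 424 against 340, 359 and 359 (-0.21 ± 0.07, adjusted p = 0.414), and Mrps6 had 259, 284 and 299 against 224, 251 and 250 (-0.21 ± 0.09, adjusted p = 0.480). Mrpl52 gave 543, 558 and 532 against 425, 490 and 516 (-0.19 ± 0.08, adjusted p = 0.466), and mitochondria-only Mrps35 gave 568, 617 and 588 against 511, 534 and 532 (-0.17 ± 0.06, adjusted p = 0.414). In each of these 4 genes, too, the highest mutant was below the lowest control. Mrpl12 gave 1218, 1256 and 1178 against 1053, 1116 and 1159 (-0.13 ± 0.05, adjusted p = 0.443), and Mrps34 gave -0.14 ± 0.06.

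Above 0 were 13 members, 6 of the small and 7 of the large subunit. The 5 highest all belong to the small subunit. Mrps10 had 519, 446 and 450 in controls and 485, 519 and 526 in mutants (0.12 ± 0.08, adjusted p = 0.629), and Mrps12 had 400, 358 and 386 against 402, 421 and 397 (0.09 ± 0.07, adjusted p = 0.678). Mrps22 had 693, 693 and 647 against 700, 705 and 718, and was the 1 member with all mutants above all controls (0.06 ± 0.05, adjusted p = 0.713). Mrps9 and Mrps14 gave 0.07 ± 0.05 and 0.06 ± 0.07. Of the 18 genes named for their role that are in the tables, 14 were below 0 here, between -0.21 and 0.09 over all 18.

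With epithelial loss of Wnt5a, in the Wnt5a-Sox9-Cre table, the median was 0.029, or 2.00% higher in the mutants, and 18 of 76 members were below 0, against 49.3% of all genes. No member and 0% of all genes passed an adjusted p of 0.05, and the smallest adjusted p of a member was 0.9999. At an unadjusted p under 0.05, 1 member was higher (1.32%, against 1.08% of all genes) and 0 were lower, against 2.81%. The groups did not overlap for 4 members in the higher direction (5.26%, against 4.42% of all genes) and for 1 in the lower direction (1.32%, against 4.37%). The small subunit had a median of 0.030 and the large subunit of 0.028.

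The sign of that median rested on mutant replicate 1. The median member stood at -0.0011, 0.022 and -0.012 in the controls and at 0.091, 0.014 and -0.0088 in mutant replicates 1 to 3. Mutant replicate 1 was above every control for 46 members, against 28.0% of all genes, and mutant replicates 2 and 3 for 21 and 20, against 27.7% and 34.1%. Its length correlation over all genes was -0.40, the lowest of the table. Without it the median of the members was -0.0020. The same library had the highest sum of the 4 skeletal muscle markers, 1390, against 54 and 28 in the other mutants and 91 to 720 in the controls. The 9 cardiomyocyte markers summed to 5220, 8426 and 18401 in the controls and 5680, 2842 and 1030 in mutant replicates 1 to 3. The part of such cells in the members' values was not tested. With the length trend removed 23 of 76 members were below 0, against 50.7% of all genes, and 0 were lower at an unadjusted p under 0.05, against 3.44%, and 1 higher, against 1.51%. With coding length 18 were below 0, against 51%, and 0 were lower at that p, against 3.19%.

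Mrpl42, the member with the highest level per kilobase, was the one with an unadjusted p under 0.05. It had 1342, 1403 and 1371 normalized counts in controls and 1552, 1538 and 1447 in mutants, with no overlap (0.14 ± 0.05, adjusted p = 0.9999). Mrpl9, the counterpart of bacterial L9, had the highest value, with 630, 617 and 646 against 853, 677 and 644 (0.19 ± 0.10, adjusted p = 0.9999), and mutant replicate 1 alone stood well above the controls. Mrpl35 had 518, 551 and 551 against 582, 620 and 556 (0.12 ± 0.07), and Mrps25 had 545, 568 and 589 against 629, 618 and 591 (0.11 ± 0.06). The mutants of both lay above all controls. Mrpl19 gave 0.11 ± 0.08. The lowest was Mrpl33 with 484, 381 and 402 against 381, 378 and 368 (-0.16 ± 0.10, adjusted p = 0.9999), where all mutants were below the controls by a narrow margin. Mrpl27, Mrps9, Mrpl52 and Mrps21 followed with -0.06 ± 0.08, -0.06 ± 0.07, -0.05 ± 0.06 and -0.04 ± 0.08. Mrpl12, at 0.05 ± 0.06, and the other 17 genes named for their role lay between -0.16 and 0.10.

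**Figure D5:**
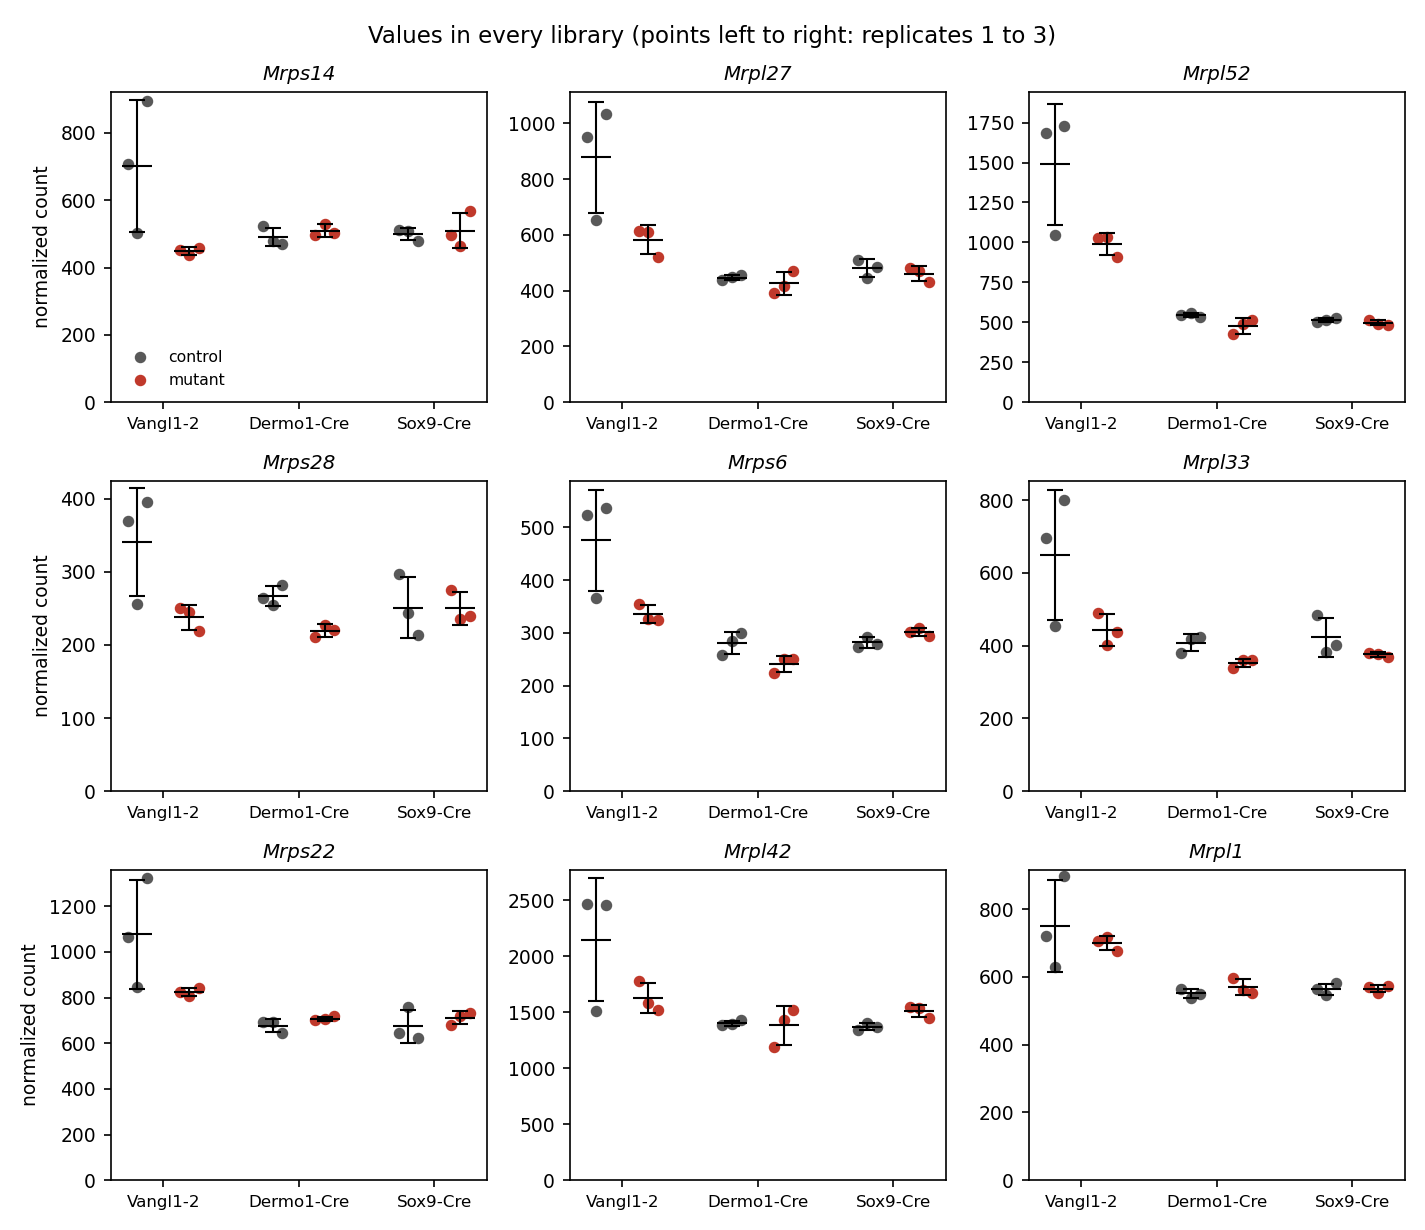
Normalized counts of 9 members in every library of the 3 tables, controls in grey and mutants in red, with bars for the mean ± SD (n = 3). Mrps14 shows the wide Vangl1-2 controls (706, 503 and 896) over tight mutants (451, 437 and 459), and the same gene differs little between groups in the Wnt5a tables, where levels were normalized separately.

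The 3 experiments have separate controls, and their fold changes for each gene could be set side by side. Across the 76 genes, Spearman's correlation between the log2 fold changes of the Vangl1-2 and Wnt5a-Dermo1-Cre tables was 0.40. It was 0.19 between Vangl1-2 and Wnt5a-Sox9-Cre and 0.14 between the Wnt5a tables. These genes share libraries and, within a table, the trend on length, so the values are descriptions. Over the members alone, log2 fold change correlated with transcript length by 0.50, 0.27 and 0.22 in the 3 tables. Mrpl52 and Mrps28 were the genes in which no mutant reached a control in both E12.5dpc experiments, together with Mrps6. In the single tables this held for 15 and 13 of the 76 members, against 8.68% and 7.92% of all genes. The share of all genes in both tables at once was not counted, so no meaning is given to the overlap.

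The members are scattered over 17 chromosomes in the mouse annotation (GRCm38, GENCODE release 21), and many share a start region with a neighbour. For 22 of 76 (28.9%) the start of a protein-coding gene on the opposite strand lies within 1000 bases and points away, against 11.2% of 12991 tested protein-coding genes. Mrps12 lies beside Sars2, the mitochondrial seryl-tRNA synthetase, at 172 bases, and Mrpl36 beside Ndufs6, a complex I subunit, at 29 bases. Mrpl49 lies beside Fau, which encodes a cytosolic ribosomal protein, at 59 bases. All 22 neighbours were tested. These members had a Vangl1-2 median log2 fold change of -0.37, and their neighbours, with a median longest transcript of 2938 bases, of -0.12, with 14 of 22 below 0. Without control replicate 2 these medians were -0.62 and -0.17. Mrpl36 and Ndufs6, with similar lengths of 923 and 757 bases, gave -0.50 and -0.48. Mrpl44 and Wdfy1, of 1424 and 4551 bases, gave -0.37 and 0.43. In the Wnt5a-Dermo1-Cre table the medians were -0.061 and -0.034, and in the Wnt5a-Sox9-Cre table they were 0.027 and 0.021.

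Start regions were also searched for motifs, and their part in the members' shared movement from library to library was not tested. RefSeq windows of 250 bases before to 50 after the start (GRCm38.p6) matched 67 of the 76 genes by symbol. The median share of G and C was 58.3% in the members' windows and 52.7% in all windows, and its part in the motif shares was not tested. The ETS motif CCGGAAG, on either strand, was in the windows of 24 of these genes (35.8%), against 18.6% of the genes tested in the Vangl1-2 table and 9.93% of all genes with a window. The YY1 motif AAGATGGCG was in 8 (11.9%), against 3.26% of the tested and 1.64% of all genes. The NRF1 motif, GCGCA followed directly by its reverse complement, was in 3 (4.48%), against 2.28% and 1.07%. The E-box CACGTG, bound by Myc, was in 5 (7.46%), against 11.6% and 8.09%. No motif contains another, but the end of the ETS motif can serve as the start of the YY1 motif, and a match is a description and not a site. The 24 genes with the ETS motif had a Vangl1-2 median log2 fold change of -0.42 and the other 43 of -0.37, or -0.64 and -0.58 without control replicate 2. With and without the motif the medians were -0.36 and -0.40 for YY1, -0.35 and -0.40 for NRF1, and -0.50 and -0.40 for the E-box. Without control replicate 2 they were -0.60 and -0.61, -0.53 and -0.62, and -0.73 and -0.61. No difference between genes with and without a motif was tested. The following stretches lie upstream of the annotated start, on the strand of the gene, with the motif in capitals. They come from members whose mutants all lay below the controls in the Vangl1-2 table. Mrpl22 and Mrps22 show the ETS motif, Mrpl52 its reverse complement and Mrpl20 the E-box.
Mrpl22, chr11:58171571-58171657, plus strand: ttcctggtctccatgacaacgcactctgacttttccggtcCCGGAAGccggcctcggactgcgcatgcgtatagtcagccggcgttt
Mrpl52, chr14:54426822-54426908, plus strand: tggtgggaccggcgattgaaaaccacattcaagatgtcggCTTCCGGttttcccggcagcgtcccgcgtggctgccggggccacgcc
Mrpl20, chr4:155802805-155802877, plus strand: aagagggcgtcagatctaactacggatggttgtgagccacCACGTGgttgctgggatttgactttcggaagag
Mrps22, chr9:98601680-98601730, minus strand: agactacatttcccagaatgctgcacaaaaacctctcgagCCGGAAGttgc

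Of these genes, Mrpl22 had 853, 628 and 1028 normalized counts in the Vangl1-2 controls and 627, 561 and 574 in the mutants (-0.48 ± 0.17, adjusted p = 0.233). Mrpl20 had 1632, 1174 and 1901 against 1146, 1046 and 964 (-0.55 ± 0.17, adjusted p = 0.233), and Mrps22 had 1064, 846 and 1323 against 824, 809 and 844. In Mrpl22 and Mrps22 control replicate 2 lay only just above the highest mutant.

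Some counts are less certain than others. Of the members, 41 overlap another annotated gene and 22 overlap one that was tested, and the strand setting of the counting is not given in the sources used here. Mrps6 overlaps Slc5a3 on the same strand, and Mrpl46 and Mrps11 overlap each other on opposite strands. Named pseudogenes exist for Mrpl23, Mrpl48 and Mrps36, and reads of near-identical copies could have been split between them.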

How the data were processed

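Bulk RNA-Seq of embryonic mouse lungs was analysed from 3 deposited tables of 23420 rows, each with 6 libraries. Per the submitters' processing notes, the tools were Trim Galore, HISAT2, featureCounts and DESeq2, with build mm10, and versions are not given in the sources used here. The values are a signal that the authors made by dividing gene counts by a size factor per library within each table. They are called normalized counts here. The deposited columns of log2 fold changes and p-values, which the authors made for their own comparisons, and of overall means were not used.

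Libraries were grouped by the labels. In each table, genes that reached 10 normalized counts in 3 or more of the 6 libraries were tested on log2(value + 1) with limma 3.58.1 (R 4.3.3), with a mean-variance trend and no covariate. P-values were two-sided and adjusted by the Benjamini-Hochberg method over all genes tested, at a threshold of 0.05. A fold change is on the log2(value + 1) scale. In all 18 libraries every value under 200 was a whole multiple (within 0.01) of the smallest value, so that whole reads look recoverable. Tests on counts were nevertheless not run, because in most libraries that step lay too close to 1 for the criterion applied here to tell it from rounding. Fits were checked on simulated data. An exact permutation test of 3 against 3 libraries cannot go below 0.1. A replicate number was taken to pair libraries only where every same-number correlation of deviations exceeded 0.1, and these ranged from -0.22 to 0.30.

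Transcript lengths, coding lengths and neighbours came from GENCODE mouse release 21, which matched 98.3% of 23418 distinct names. For the length alternative, a lowess curve (span 0.3) of each library's deviations on log2 length was subtracted. The smallest value above 0 per library was between 0.932 and 1.05, close to the worth of 1 read, and the lowest member value in a library was 211.

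Members and lists were chosen with earlier results of these data known. Named with values were members under an adjusted p of 0.05, the 5 lowest and 5 highest per table, the 3 highest and 3 lowest per kilobase, members fixed for their role, the targeted genes, and the lowest and highest genes of the other lists, the last for the Vangl1-2 table only and not in every case. Further members were named after their values were seen: Mrpl17, Mrpl20 and Mrpl22, and those given for neighbours, motifs or groups that did not overlap. Alternatives changed the scaling, the pseudocount, the filter, the length trend, the replicate block and the libraries kept. Promoter windows were read from RefSeq. Python 3.11.15 was used for summaries and figures.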

Additional observations from a re-analysis of the deposited data

Results flagged for a closer look

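The members Mrps22 and Mrps6 had groups that did not overlap in opposite directions in 2 experiments, and the difference between the experiments was not tested. Of all genes, 8.68% were apart in the lower direction in the Vangl1-2 table and 7.92% with Dermo1-Cre. In the higher direction 7.65% were apart with Dermo1-Cre and 4.42% with Sox9-Cre. The share of all genes apart in opposite directions was not counted, so no meaning is given to these members. Mrps22 was lower in all Vangl1-2 mutants, with a log2 fold change of -0.36, and higher in all Wnt5a-Dermo1-Cre mutants, with 0.063. Mrps6 was lower in all mutants of the Vangl1-2 table, with -0.48, and of the Wnt5a-Dermo1-Cre table, with -0.21, and higher in all Wnt5a-Sox9-Cre mutants, with 0.097. For Mrps6 in the Wnt5a-Sox9-Cre table the lowest mutant and the highest control both had 293 normalized counts when rounded, and the standard error was 0.08. With 3 libraries a group, and a Vangl1-2 control that sits with the mutants, these are values to look at again and no more.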

How the results depend on the processing

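The tests on read counts by edgeR and DESeq2, and TMM scaling, which had been planned for recovered whole reads, were not run, because in most libraries the step between values lay too close to 1 for the criterion applied, although low values were whole multiples of it in all 18. This is a limit of the re-analysis and not of the data. Under upper-quartile or total scaling, other pseudocounts or filters, and both length corrections, 0 members passed an adjusted p of 0.05 in any table. With transcript length removed, the median member was -0.088 in the Vangl1-2 and -0.021 in the Wnt5a-Dermo1-Cre table, and small minus large subunit was 0.028 and -0.023. With transcript length removed and without control replicate 2 the Vangl1-2 median was -0.15, an alternative chosen after the data were seen, as were total scaling and coding length. The cause was not tested. Leaving out 1 library gave 0 to 75 members called in the Vangl1-2 table. The 75 came without control replicate 2, where 21.7% of all genes were called lower and 21.5% higher. Over the fits without 1 library, small minus large subunit ran from -0.026 to 0.019 in the Vangl1-2 table. It ran from -0.022 to 0.026 with Dermo1-Cre and from -0.018 to 0.018 with Sox9-Cre. The median member then ran from -0.61 to -0.27, from -0.080 to -0.033 and from -0.0020 to 0.050. In a fit with the replicate number as a block, the medians were -0.40, -0.055 and 0.029 and 0 members were called. Same-number libraries did not deviate together in every pair, so the numbers were not taken as pairing, and the block changed no call.

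With the transcript length trend removed, 15 members were above 0 in the Vangl1-2 table: Mrps2 at 0.030, Mrps31 at 0.077, Mrpl33 at 0.00055, Mrpl41 at 0.051, Mrps18b at 0.032, Mrps36 at 0.081 and Mrpl42 at 0.088, besides Mrpl34 at 0.067 and 7 more between 0.0038 and 0.014. With coding length 4 members were above 0, Mrpl1 at 0.023, Mrps2 at 0.0072, Mrpl49 at 0.029 and Mrpl50 at 0.024, and over the fits without 1 library Mrpl1 ran from -0.20 to 0.055, the latter without control replicate 3. In the Wnt5a-Sox9-Cre table Mrps21 ran from -0.11 to 0.023, the latter without mutant replicate 2, and Mrpl12 from -0.0048, without mutant replicate 1, to 0.10. The lowest value of a member in any library was 211 normalized counts, and how much of the spread between libraries is counting error was not tested.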
